A study of Homo sapiens with 23 samples.

Results

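Fibroblast growth factor (FGF) signalling was followed in 37 genes: 18 secreted FGF ligands, 4 intracellular FGF homologous factors, the 4 FGF receptor tyrosine kinases, and 11 genes that ERK switches on downstream, most of which feed back on the pathway. The members were taken by gene name, as rows of the count table whose Ensembl identifiers carry these symbols in GENCODE. All 37 were found among the 57477 genes used. FGF ligands bind their receptors together with heparan sulfate or, for the endocrine ligands, with a Klotho coreceptor, and the receptors signal through RAS to the kinase ERK. ERK in turn raises the expression of its own inhibitors, the Sprouty and SPRED proteins and the dual-specificity phosphatases, and of ETS factors of the PEA3 group (ETV1, ETV4 and ETV5), so that the messenger RNAs of these genes are widely used as readouts of the pathway. FGF signalling is known for keeping human embryonic stem cells undifferentiated, for the exit of mesoderm from the primitive streak and for the growth of heart progenitors.

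The cells were H1-hESC, an established human embryonic stem cell line of WT genotype, taken through directed differentiation into cardiomyocytes. The 8 groups were day 0 (labelled Stem Cell), day 1 (Mesendoderm), day 3 (Cardiac mesoderm), days 5 and 7 (Cardiac progenitors), and days 10, 14 and 28 (Cardiomyocyte), with 3 libraries of ribosomal RNA-depleted total RNA a day and 2 on day 10. Stem cells were kept in mTesR1, a defined medium that contains FGF2, and the derived cardiomyocytes in RPMI with insulin. The agents that drove the differentiation are not given in the sources used here, all libraries come from 1 line, and no control culture at later days was analysed here.

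Levels are CPM, read counts scaled to the size of the library, given for replicates 1, 2 and 3 in that order, and means are ± SD over 3 libraries (2 on day 10). Total counts per library lay between 4330334 and 22089595. Each day was set against the day before it, and day 28 also against day 0, by edgeR's quasi-likelihood test with Benjamini-Hochberg adjustment over 22245 genes. A gene was called at adjusted p under 0.05, and log2 changes are later day over earlier day. Of the 37 members, 33 passed the filter on low counts and were tested. Neighbouring comparisons share the libraries of a day, and nothing in the labels says that libraries came from separate cultures, so a p-value here reflects how these libraries vary among themselves and nothing wider. In bulk RNA, fewer cells of a type and less RNA per cell cannot be told apart.

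Summed markers followed the labels in part. The 4 mesendoderm markers summed to between 2643 and 3584 CPM on day 1, where the 4 stem cell markers summed to between 1523 and 2475, against 2084 to 2296 CPM on day 0. POU5F1 made up most of that sum, at 1895 ± 479 CPM on day 1 and 1642 ± 94.1 on day 0, while NANOG averaged 162 CPM on day 1 and 251 on day 0, SOX2 23.7 and 209, and PRDM14 10.5 and 83.6 (SD, n = 3 each). The 6 cardiomyocyte markers summed to 1321 to 2858 CPM on day 5, 9280 to 11464 on day 7, and 26544 to 39496 on day 28. The 4 cardiac mesoderm markers summed to 351 to 364 CPM on day 0, 606 to 857 on day 3 and 446 to 1322 on day 5. The 4 neural markers summed to 48.3 to 97.7 CPM on day 3, against 1.70 to 2.59 on day 1 and 1.20 to 1.99 on day 5. On day 3, 2 of these neural markers averaged 1 CPM or more and NEUROD1 had 0 counts. Libraries of the same day correlated across genes, which are not independent replicates, at r of 0.968 to 0.993, except on day 5, where r was 0.907 to 0.956. Day 5 replicate 2 had the lowest endoderm and liver marker sum of that day (551, 190 and 527 CPM over 7 genes) and the highest epicardial sum (17.2, 75.5 and 16.4 CPM over 4 genes). The 2 day 10 libraries had endoderm and liver sums of 170 and 549 CPM, and the day 14 libraries 529, 2364 and 3208 CPM. The fibroblast and stroma sum over 6 genes was 2788 to 3236 CPM on day 28, against 361 to 604 CPM on day 14. The part of these differences in the results was not tested, and their values are given here or beside genes that moved with them.

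Members were called in every comparison, with the fewest calls on day 10. On day 1 against day 0, 9 members were higher and 10 lower of the 33 tested, where 15.3% of all genes tested were higher and 16.5% lower. On day 3 against day 1, 7 were higher and 9 lower (18.2% and 19.0% of all genes). On day 5 against day 3, 5 were higher and 11 lower (10.3% and 6.33% of all genes), and on day 7 against day 5, 8 were higher and 5 lower (5.32% and 5.02%). Few were called on day 10 against day 7, with 2 higher and 1 lower (4.17% and 3.50% of all genes). With only the libraries of these days, 4 were higher and 4 lower of 25 tested (2384 and 2115 of 16813 genes). On day 14 against day 10, 3 were higher and 6 lower (1.64% and 2.11%). On day 28 against day 14, 7 were higher and 6 lower (7.96% and 7.78%), and over the whole course, day 28 against day 0, 10 were higher and 12 lower (32.1% and 28.4%). The counts on day 3, on day 10 and over the whole course lay near the shares of all genes. FGF22 and FGF23 were tested and never called.

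Some of these counts rested on single libraries or on the other days in the fit. When days 3 and 5 were fitted alone, 3 members were higher and 7 lower of 25 tested (846 and 556 of 16763 genes). The calls of FGF13, SPRY2, SPRED2, ETV1 and ETV5 ended there. When days 5 and 7 were fitted alone, 4 were higher and 0 lower of 23 tested (528 and 227 of 15989 genes). The calls of FGF2, FGFR1, FGFR2, FGFR3, SPRY2, SPRY4, ETV1 and ETV4 ended there. Without day 5 replicate 2, 9 of 32 members tested were higher on day 5 against day 3, as were 3307 of 21362 genes. Without day 7 replicate 2, 3 of 33 were lower on day 7 (432 of 22359 genes). Without day 7 replicate 3, 1 of 33 was higher on day 10 (375 of 22434 genes). Without day 10 replicate 1, 1 member was higher and 0 lower on day 10 and 0 were higher on day 14. Without day 10 replicate 2, 1 was higher and 3 lower on day 10, and 1 higher and 3 lower on day 14. No called change of a member turned its direction in any fit.

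**Figure D1:**
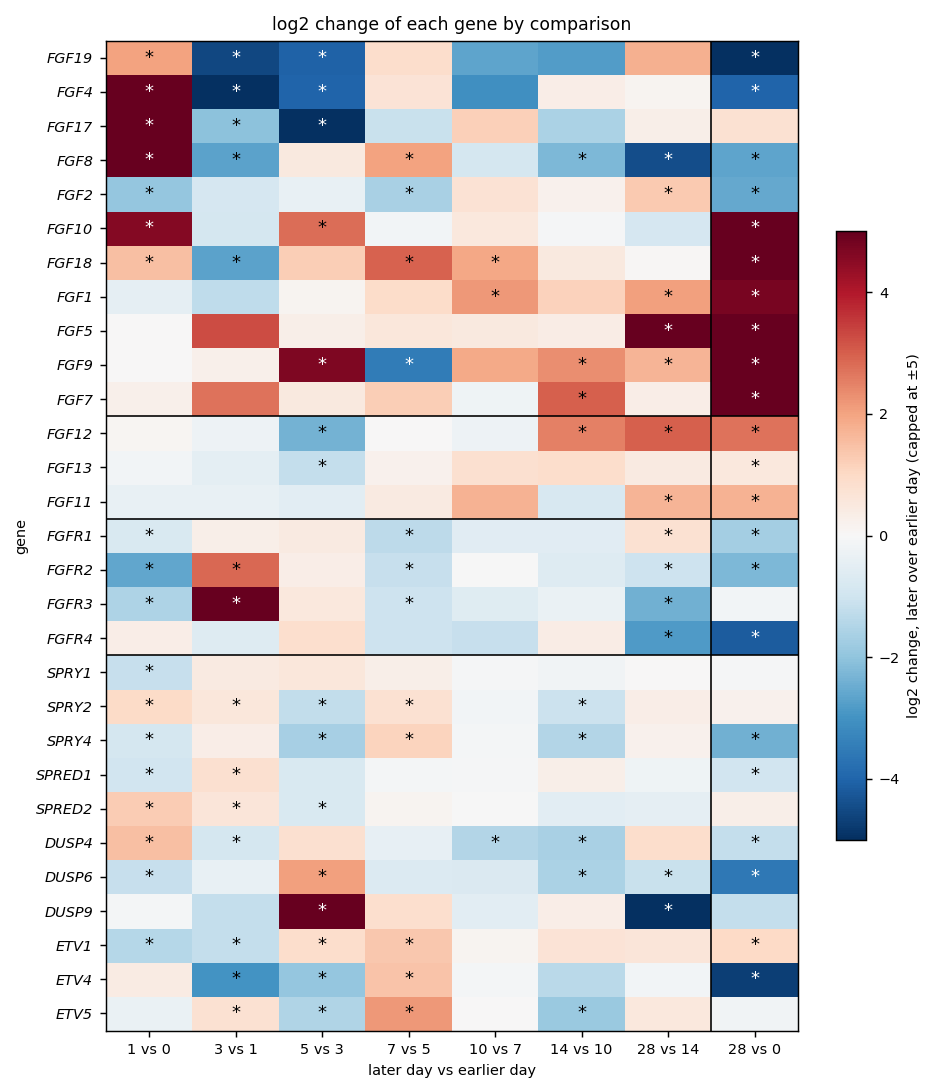
Log2 change (colour, later day over earlier day, capped at ±5) of the 29 members that reached a mean of 5 CPM on at least 1 day (rows, by role) in each comparison (columns). Stars mark calls at adjusted p under 0.05. On day 1 the cells at the cap are those of FGF4, FGF8 and FGF17, and on day 28 against day 14 those of FGF5 and DUSP9. SPRY2, SPRY4, ETV4 and ETV5 change sign between day 5 and day 7. Fitted values of genes at or near 0 counts on a day, such as FGF5 before day 28, are not bounds.

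The 4 stretches shown here lie before the transcription start of the ligand that was highest among the ligands at the end of the course (FGF18), the receptor with the largest rise (FGFR3), and a pair of feedback genes that moved in opposite directions on day 5 (SPRY2 and DUSP9). Each line gives the 250 bases before 1 RefSeq start (GRCh38.p14), 5′ to 3′ on the gene's own strand, and none overlaps an annotated exon. Capitals mark matches to 3 motifs, searched on either strand. The first, CCGGAAG, is 1 form of the site that ETS factors such as the PEA3 group bind, and other forms were not searched. The second, GGGCGG, is the GC box that is bound by SP factors at many promoters. The third, CTTTGAT, is the core bound by TCF/LEF factors of the WNT pathway.
FGF18 (chr5:171419397-171419646, plus strand): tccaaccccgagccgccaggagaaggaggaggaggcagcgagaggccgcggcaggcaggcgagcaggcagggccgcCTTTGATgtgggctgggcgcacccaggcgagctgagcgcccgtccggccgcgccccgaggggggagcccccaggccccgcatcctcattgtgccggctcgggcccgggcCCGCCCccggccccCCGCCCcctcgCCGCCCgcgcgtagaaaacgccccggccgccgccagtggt
FGFR3 (chr4:1793043-1793292, plus strand): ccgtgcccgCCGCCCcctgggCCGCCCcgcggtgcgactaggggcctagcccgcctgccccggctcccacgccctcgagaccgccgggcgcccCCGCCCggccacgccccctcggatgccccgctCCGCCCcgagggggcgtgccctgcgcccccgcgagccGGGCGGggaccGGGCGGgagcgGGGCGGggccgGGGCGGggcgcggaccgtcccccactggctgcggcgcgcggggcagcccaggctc
SPRY2 (chr13:80341127-80341376, minus strand): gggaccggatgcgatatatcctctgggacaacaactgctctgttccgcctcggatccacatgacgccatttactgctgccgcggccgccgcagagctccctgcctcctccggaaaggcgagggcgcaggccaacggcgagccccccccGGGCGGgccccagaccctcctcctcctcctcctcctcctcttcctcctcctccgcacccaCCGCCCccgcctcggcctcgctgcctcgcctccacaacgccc
DUSP9 (chrX:153642191-153642440, plus strand): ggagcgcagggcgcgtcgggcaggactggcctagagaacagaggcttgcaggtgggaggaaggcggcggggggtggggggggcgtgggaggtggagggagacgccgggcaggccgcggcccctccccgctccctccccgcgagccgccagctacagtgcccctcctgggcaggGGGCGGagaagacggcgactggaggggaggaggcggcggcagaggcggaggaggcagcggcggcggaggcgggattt
FGF18 has 1 TCF/LEF match, starting 174 bases before the start, and 3 GC boxes. FGFR3 has 8 GC boxes, SPRY2 has 2 and DUSP9 has 1, and no matches overlapped. Over 34941 RefSeq windows of this length, 8.48% hold the ETS letters, 42.5% a GC box and 2.27% the TCF/LEF letters. Windows were at hand for 26 members, some with several starts, so counts of members are not set against these shares of windows. The ETS letters were in a window of 1 of these members (SPRY1), a GC box in 19 and the TCF/LEF letters in 1 (FGF18). Windows were not at hand for FGF4, FGF8, FGF9, FGF16, FGF17, FGF19, FGF20, FGFR1, DUSP4, ETV4 and ETV5. A match is a description of the letters, not of binding.

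On day 1 a burst of 4 secreted ligands stood out: FGF4, FGF19, FGF17 and FGF8, of which FGF4, FGF8 and FGF17 are known from the primitive streak of the mouse embryo. FGF4 lies between FGF19 and FGF3 on chromosome 11. FGF4 (ENSG00000075388, chromosome 11, 69771022 to 69775341, minus strand, GRCh38 here and below) had 3.12, 2.83 and 2.94 CPM on day 0, 385, 373 and 351 on day 1 and 6.71, 8.87 and 18.4 on day 3, and its later libraries lay at 0 to 1.93 CPM. Every day 1 library lay above every library of the other days. FGF4 rose on day 1 (log2 change 6.96, SE 0.48, adjusted p = 5.13e-11) and fell on day 3 (log2 change -5.04, SE 0.43, adjusted p = 1.61e-09) and day 5 (log2 change -4.02, SE 0.53, adjusted p = 3.22e-06).

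FGF19 (ENSG00000162344, chromosome 11, 69698238 to 69704022, minus strand), the endocrine ligand that in adults regulates bile acid synthesis, had 24.4, 21.5 and 23.1 CPM on day 0, 100, 72.2 and 106 on day 1 and 2.44, 4.98 and 4.72 on day 3. From day 5 its libraries lay at 0 to 0.843 CPM, and on day 28 it had 1 count over 3 libraries. The libraries of days 0, 1 and 3 did not overlap. FGF19 rose on day 1 (log2 change 2.02, SE 0.31, adjusted p = 3.97e-05), then fell on day 3 (log2 change -4.55, SE 0.36, adjusted p = 7.91e-10) and day 5 (log2 change -4.04, SE 0.55, adjusted p = 6.81e-06).

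FGF17, a ligand of the FGF8 subfamily, had 0.109, 0.236 and 0.0577 CPM on day 0, 95.2, 71.1 and 118 on day 1 and 5.82, 15.9 and 46.4 on day 3, and 0 to 0.993 CPM later. The day 3 libraries spread widely, and replicate 3 was the highest of them, as it was for FGF4. That library also had the highest mesendoderm marker sum of day 3 (180, 236 and 451 CPM), whose part in these values was not tested. FGF17 rose on day 1 (log2 change 9.30, SE 0.72, adjusted p = 4.93e-10) and fell on day 3 (log2 change -2.07, SE 0.46, adjusted p = 0.00101) and day 5 (log2 change -5.21, SE 0.65, adjusted p = 1.4e-06). Without day 3 replicate 3, the day 3 log2 change was -3.08 for FGF17 and -5.52 for FGF4.

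FGF8 (ENSG00000107831, chromosome 10, 101770109 to 101780371, minus strand), which in the mouse is needed both in the streak and in the second heart field, had 2 peaks. It had 1.20, 0.754 and 1.44 CPM on day 0, 40.0, 28.6 and 45.6 on day 1, 4.71, 6.77 and 6.73 on day 3 and 9.85, 5.37 and 10.7 on day 5. It then had 25.1, 35.3 and 41.6 CPM on day 7, 18.2 and 19.4 on day 10, 3.27, 4.18 and 4.54 on day 14 and 0.148, 0.232 and 0.144 on day 28. The day 1 and day 7 libraries stood above those of the days on either side, and the day 28 libraries below all others. FGF8 rose on day 1 (log2 change 5.07, SE 0.33, adjusted p = 1.58e-11) and fell on day 3 (log2 change -2.66, SE 0.29, adjusted p = 6.71e-08). It rose again on day 7 (log2 change 2.02, SE 0.29, adjusted p = 2.17e-05), and fell on day 14 (log2 change -2.23, SE 0.32, adjusted p = 0.000209) and day 28 (log2 change -4.44, SE 0.45, adjusted p = 1.04e-07). The day 10 libraries lay below those of day 7, a change that did not pass (log2 change -0.86, adjusted p = 0.0883) but did with library totals alone (adjusted p = 0.0315) and with only the libraries of the 2 days (adjusted p = 0.0153).

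FGF2, the ligand in the stem cell medium, went the other way on day 1. Its messenger had 65.2, 81.2 and 55.7 CPM on day 0, 15.5, 20.4 and 17.0 on day 1, 14.6, 8.33 and 6.23 on day 3 and 4.69, 12.1 and 4.72 on day 5. Later it had 3.53, 1.45 and 2.59 CPM on day 7, 3.88 and 4.25 on day 10, 2.71, 4.89 and 6.43 on day 14 and 11.5, 11.1 and 12.1 on day 28. The day 0 libraries were the highest of the course. FGF2 fell on day 1 (log2 change -1.93, SE 0.34, adjusted p = 0.000149), and its lower value on day 3 did not pass (log2 change -0.84, adjusted p = 0.0526), though it did without day 3 replicate 1 (adjusted p = 0.0157). It was called lower on day 7 (log2 change -1.61, SE 0.41, adjusted p = 0.0101) and higher on day 28 (log2 change 1.31, SE 0.37, adjusted p = 0.0142). The day 7 fall did not pass without day 5 replicate 2, its highest library of day 5, or without day 7 replicate 2 (adjusted p = 0.154 and 0.109), nor the day 28 rise without day 14 replicate 1 (adjusted p = 0.0897). NUDT6 shares 804 exon bases with FGF2 on the opposite strand (11.8% of its exons). Since the strand setting of the counting is not stated, reads there cannot be assigned.

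FGF10 was high from day 5 and FGF18 from day 10. FGF10, a ligand of FGFR2 and a marker of second heart field progenitors, had 0.0547, 0.330 and 0.173 CPM on day 0, 4.48, 5.76 and 4.32 on day 1, 4.58, 2.65 and 0.301 on day 3 and 13.2, 28.6 and 12.9 on day 5. It then had 19.6, 13.0 and 17.9 CPM on day 7, 34.0 and 15.1 on day 10, 26.5, 27.0 and 18.2 on day 14 and 14.9, 12.4 and 13.0 on day 28. From day 5 on every library lay above those of days 0 to 3. FGF10 rose on day 1 (log2 change 4.60, SE 0.63, adjusted p = 5.86e-06) and on day 5 (log2 change 2.79, SE 0.47, adjusted p = 8.21e-05). Day 5 replicate 2 was the highest library of that day, and without it the day 5 rise was smaller (log2 change 2.13, adjusted p = 0.000646).

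FGF18 (ENSG00000156427, chromosome 5, 171419647 to 171457626, plus strand), a ligand of the FGF8 subfamily best known from the skeleton, climbed late. It had 1.04, 1.18 and 0.923 CPM on day 0, 3.48, 2.73 and 2.77 on day 1, 0.489, 0.389 and 0.502 on day 3 and 1.44, 0.558 and 1.74 on day 5. It had 5.10, 8.67 and 11.5 CPM on day 7, 32.4 and 32.5 on day 10, 53.4, 42.9 and 41.6 on day 14 and 49.3, 53.2 and 40.7 on day 28. The libraries of days 7, 10 and 14 did not overlap, each day above the one before, while those of days 14 and 28 overlapped. FGF18 rose on day 1 (log2 change 1.50, SE 0.31, adjusted p = 0.00091) and fell on day 3 (log2 change -2.67, SE 0.36, adjusted p = 2.96e-06). The climb was called on day 7 (log2 change 2.96, SE 0.35, adjusted p = 1.45e-06) and on day 10 (log2 change 1.92, SE 0.29, adjusted p = 0.000226), and over the course FGF18 rose (log2 change 5.49, SE 0.32, adjusted p = 2.36e-13).

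FGF5, FGF9, FGF1 and FGF7 were the ligands of the last days. FGF5 (ENSG00000138675, chromosome 4, 80266639 to 80336680, plus strand), known as an inhibitor of hair growth, had 0 counts in every library of days 0 and 1. It lay at 0 to 0.757 CPM from day 3 to day 14, and had 24.3, 17.5 and 30.1 CPM on day 28. Every day 28 library stood above all earlier ones. FGF5 rose on day 28 (log2 change 6.18, SE 0.54, adjusted p = 5.65e-08), and its day 28 mean of 23.9 CPM was at least 454-fold higher than day 0, against a floor of 3 counts over the day 0 libraries (0.0528 CPM).

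FGF9, which in the mouse heart comes from endocardium and epicardium, lay at 0 to 0.178 CPM to day 3 and had 1.20, 5.78 and 0.993 CPM on day 5, 0, 0.361 and 0.311 on day 7 and 0.904 and 1.06 on day 10. It had 15.1, 15.8 and 17.1 CPM on day 28, against 5.19, 4.18 and 5.55 on day 14. The day 5 value was carried by replicate 2, the library with the high epicardial marker sum. FGF9 was called higher on day 5 (log2 change 4.68, SE 0.67, adjusted p = 9.55e-06) and lower on day 7 (log2 change -3.51, SE 0.67, adjusted p = 0.00089). Without day 5 replicate 2 these changes were 3.14 (adjusted p = 0.000938) and -1.98 (adjusted p = 0.0399). FGF9 was also called higher on day 14 (log2 change 2.32, SE 0.59, adjusted p = 0.027) and on day 28 (log2 change 1.68, SE 0.40, adjusted p = 0.00439). Adjusted p for the day 14 rise was 0.167 without day 10 replicate 1, 0.225 without day 10 replicate 2, 0.0731 without day 14 replicate 1 and 0.0843 without day 14 replicate 3.

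FGF1, which binds all 4 receptors, lay at 0.100 to 1.09 CPM to day 7. It had 2.97 and 3.07 CPM on day 10, 2.93, 11.5 and 5.93 on day 14 and 31.6, 31.5 and 21.8 on day 28. The day 28 libraries stood above all others. FGF1 rose on day 28 (log2 change 2.06, SE 0.36, adjusted p = 0.000158), and was also called higher on day 10 (log2 change 2.18, SE 0.56, adjusted p = 0.017). Adjusted p for the day 10 change was 0.119 without day 10 replicate 1, 0.0791 without day 10 replicate 2 and 0.126 without day 7 replicate 3.

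FGF7, known as keratinocyte growth factor and made by stromal cells, lay at 0 to 1.45 CPM to day 10. It had 9.54, 8.73 and 12.4 CPM on day 28, against 8.01, 4.53 and 11.5 on day 14, and 2 counts over the day 0 libraries. FGF7 rose on day 14 (log2 change 3.00, SE 0.63, adjusted p = 0.008), a call that ended without day 10 replicate 1 (adjusted p = 0.0664) or 2 (adjusted p = 0.126). Its libraries of days 28 and 14 overlapped. Annotated copies of FGF7, of at most 303 bases, took at most 38 counts each, against 691 for FGF7. On day 28 the rises of FGF5, FGF9 and FGF1 stood beside the higher fibroblast and stroma sum and a smooth muscle sum of 1479 to 1636 CPM, against 193 to 297 CPM on day 14. All 6 stromal and all 3 smooth muscle markers averaged 1 CPM or more on both days. The 6 cardiomyocyte markers also summed higher, to 26544 to 39496 CPM on day 28, against 19533 to 20595 on day 14. The stromal sum was 1441 to 2327 CPM on day 5 and 812 to 1520 on day 7. On days 5 and 7 FGF5 averaged 0.129 and 0.149 CPM, FGF1 0.353 and 0.687, and FGF9 2.66 and 0.224. The sum of the 4 epicardial markers was 22.4 to 32.7 CPM on day 28, against 5.64 to 18.3 CPM on day 14, with 2 of them at a mean of 1 CPM or more on day 28 and 1 on day 14, and the part of those cells was not tested.

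The other secreted ligands stayed below a mean of 5 CPM on every day. FGF3, a ligand of the inner ear and the third gene of the chromosome 11 group (69809968 to 69819416), had 1.38, 1.63 and 3.82 CPM on day 3, against 0.309, 0.0976 and 0.173 on day 1, and rose (log2 change 3.53, SE 0.64, adjusted p = 0.00013). It had 1 count over the day 5 libraries. FGF16, a ligand of the heart in the mouse, had 1.86, 1.70 and 1.33 CPM on day 0, 2 counts over the day 3 libraries and 1.77, 1.81 and 3.32 CPM on day 7. FGF16 fell on day 1 (log2 change -1.93, SE 0.48, adjusted p = 0.00386), rose on day 7 (log2 change 2.87, SE 0.59, adjusted p = 0.00164) and was called lower on day 3 (adjusted p = 0.00762, or 0.0515 without day 3 replicate 1). FGF22 reached at most 0.789 CPM as a day mean, and FGF23, the phosphate-regulating hormone, 1.18 CPM. FGF6 had 0 to 0.844 CPM in single libraries, FGF20 0 to 0.577 and FGF21 0 to 1.47, and these 3 were not tested.

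**Figure D2:**
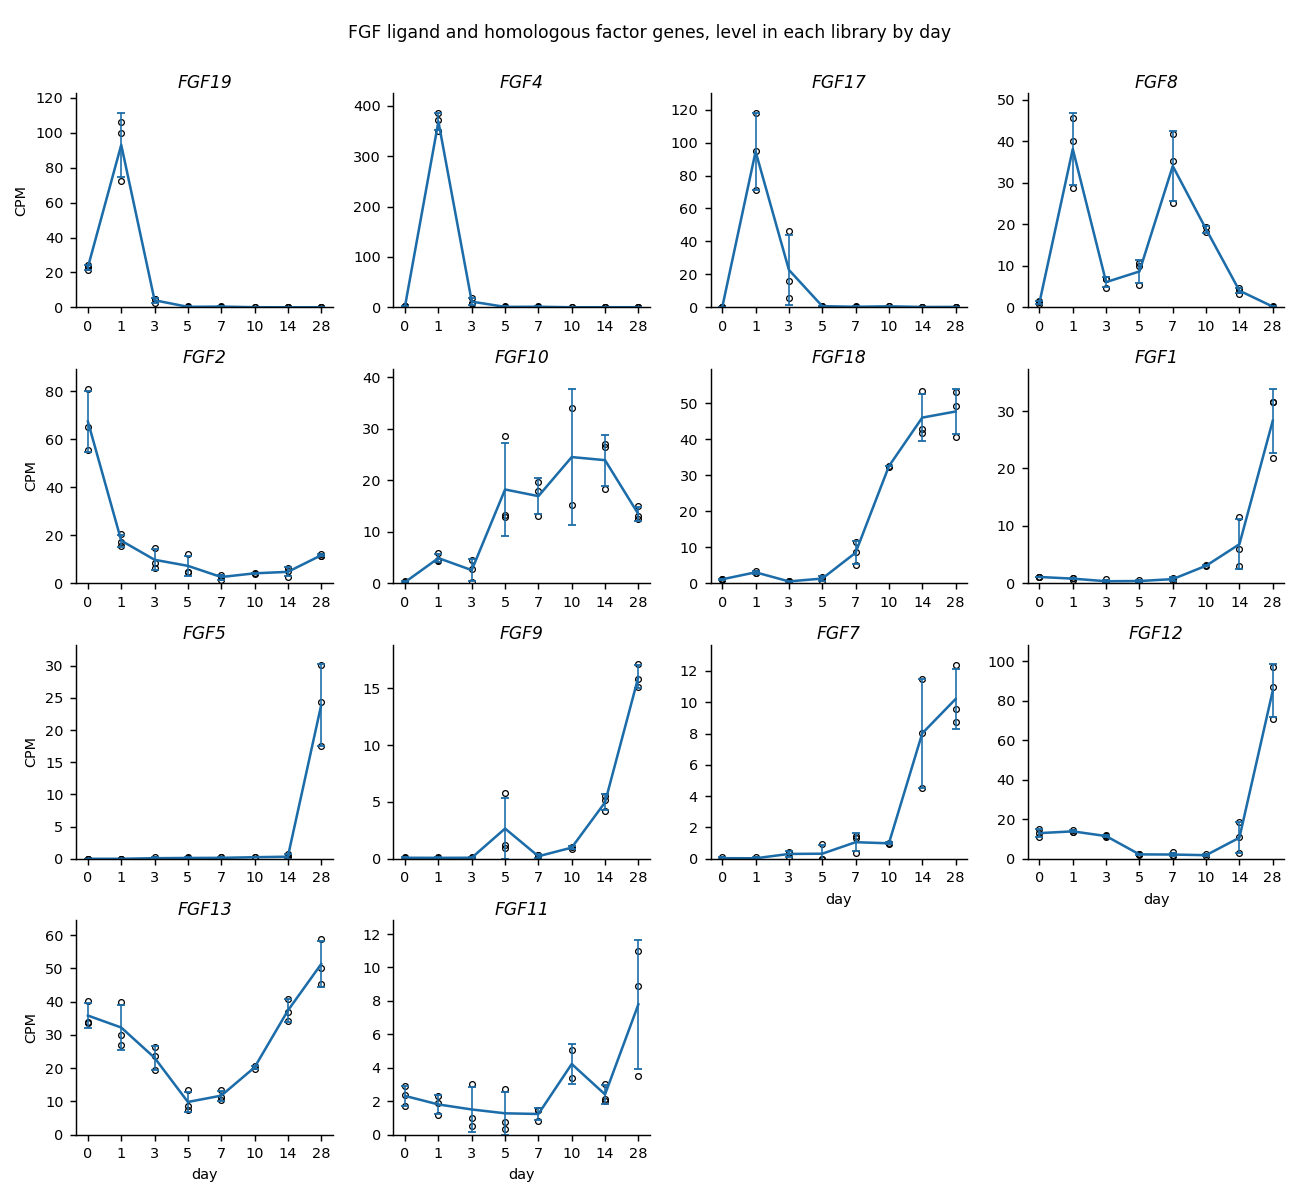
Level (CPM, each panel with its own axis) of the 11 secreted ligands and 3 homologous factors that reached a mean of 5 CPM, by day (evenly spaced, not to scale in time). Circles are libraries and lines join day means ± SD (n = 3, or 2 on day 10). FGF4, FGF19 and FGF17 peak on day 1, FGF8 on days 1 and 7, and FGF1, FGF5, FGF9, FGF12 and FGF11 are highest on day 28.

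Divided by the union of each gene's exons, which can be longer than any 1 messenger, the ligand levels can be roughly compared. The secreted ligands summed to 26.9 ± 1.49 CPM per kb on day 0, 229 ± 21.0 on day 1, 21.3 ± 9.19 on day 3 and 12.6 ± 0.792 on day 5. They summed to 33.6 ± 7.46 CPM per kb on day 7, 36.4 ± 1.49 on day 10, 34.9 ± 2.16 on day 14 and 43.2 ± 2.82 on day 28. So the sum was highest on day 1 and lowest on day 5, and the leading ligand changed several times. FGF19 held 47.0% of the sum on day 0, FGF4 50.9% on day 1 and FGF17 32.5% on day 3. The day 3 lead of FGF17 rested on replicate 3: without it FGF8 led with 24.6% and FGF17 held 20.4%. No other day's leader changed when 1 library was left out, but in day 0 replicate 2 alone FGF2 led narrowly, and in day 5 replicate 2 alone FGF10 led. The leading ligand also depends on the division by exon length. In CPM alone FGF2 led on day 0 with 67.0% of the sum, where FGF19 held 22.9%. FGF10 led on day 5 with 43.0%, where FGF8 held 20.3%, and the leaders of the other days stayed the same. These checks of the leading genes, and those of ligands and receptors without length scaling, were chosen after seeing the data. FGF8 held 47.7% on day 5 and 70.0% on day 7, and FGF18 44.6% on day 10, 66.0% on day 14 and 55.3% on day 28. Runners-up were FGF2 on day 0 (36.9%), FGF10 on day 5 (22.7%) and FGF1 on day 28 (13.2%).

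The intracellular homologous factors bind voltage-gated sodium channels and are not secreted, and 2 of them dipped on day 5. FGF12 had 13.1, 15.2 and 10.8 CPM on day 0, 13.8, 13.5 and 14.4 on day 1, 11.5, 10.9 and 12.3 on day 3 and 2.16, 2.30 and 2.23 on day 5. It had 1.57, 1.69 and 3.22 CPM on day 7, 1.42 and 2.24 on day 10, 2.71, 18.4 and 11.0 on day 14 and 97.3, 87.2 and 70.7 on day 28. The day 28 libraries were the highest of the course, and those of day 14 spread widely. FGF12 fell on day 5 (log2 change -2.36, SE 0.42, adjusted p = 0.000166) and rose on day 14 (log2 change 2.53, SE 0.50, adjusted p = 0.00556) and day 28 (log2 change 2.99, SE 0.38, adjusted p = 2.51e-06). The day 14 rise did not pass without day 10 replicate 1 (adjusted p = 0.0793) or with only the libraries of the 2 days (adjusted p = 0.0536).

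FGF13 had 33.8, 40.2 and 33.5 CPM on day 0, 29.9, 40.0 and 26.8 on day 1, 26.4, 19.4 and 23.5 on day 3 and 8.65, 13.3 and 7.45 on day 5. It had 13.3, 11.3 and 10.4 CPM on day 7, 19.8 and 20.6 on day 10, 36.8, 34.1 and 40.9 on day 14 and 50.0, 45.3 and 58.8 on day 28. Its libraries were lowest on days 5 and 7 and highest on day 28. FGF13 fell on day 5 (log2 change -1.21, SE 0.24, adjusted p = 0.000502), no later single step was called, and day 28 was called higher than day 0 (log2 change 0.52, SE 0.22, adjusted p = 0.0478). That last adjusted p was 0.154 with library totals alone, 0.216 with no filter beyond 1 count, 0.0518 with the replicate block, 0.0584 with upper-quartile factors, 0.123 without day 0 replicate 1, 0.0886 without day 0 replicate 3, 0.0518 without day 28 replicate 1 and 0.104 without day 28 replicate 3. FGF11 lay at 0.348 to 5.08 CPM to day 14 and had 8.87, 11.0 and 3.53 CPM on day 28. FGF11 rose on day 28 (log2 change 1.69, SE 0.51, adjusted p = 0.0233), with adjusted p of 0.0732 without day 14 replicate 2, 0.0825 without day 14 replicate 3, 0.0617 without day 28 replicate 1 and 0.102 without day 28 replicate 2. A same-strand long non-coding RNA covers 82.1% of the FGF11 exons and took 4 counts, against 752 for FGF11. FGF14 was not tested (0 to 0.945 CPM), and ITGBL1 covers 29.7% of its exons on the other strand.

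Of the 4 receptors, 3 fell on day 1 (16.5% of all genes), 2 rose on day 3 (18.2%) and 3 fell on day 7 (5.02%). On day 28 against day 14, 3 fell and 1 rose (7.78% and 7.96% of all genes). Several of these calls did not pass in other fits, as given with each gene. FGFR1, the receptor most linked to pluripotent cells and mesoderm, had 406, 384 and 412 CPM on day 0, 251, 192 and 266 on day 1, 224, 314 and 324 on day 3 and 435, 219 and 530 on day 5. It had 165, 153 and 167 CPM on day 7, 95.3 and 120 on day 10, 74.6, 74.2 and 69.8 on day 14 and 118, 120 and 131 on day 28. All libraries from day 7 on lay below all of days 0 to 5. FGFR1 was called lower on day 1 (log2 change -0.76, SE 0.25, adjusted p = 0.0229) and on day 7 (log2 change -1.29, SE 0.25, adjusted p = 0.00113), and higher on day 28 (log2 change 0.75, SE 0.25, adjusted p = 0.0411). The day 7 fall did not pass with only the libraries of the 2 days (adjusted p = 0.0889). The day 1 adjusted p was 0.0526 with upper-quartile factors, 0.0564 without day 0 replicate 1, 0.0527 without day 0 replicate 2, 0.0614 without day 0 replicate 3, 0.0615 without day 1 replicate 1 and 0.0803 without day 1 replicate 2. The day 28 rise did not pass when any 1 of the 6 libraries of days 28 and 14 was left out (adjusted p of 0.0569 to 0.0988), with library totals alone (adjusted p = 0.123) or with upper-quartile factors (adjusted p = 0.121).

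FGFR2, the main receptor of FGF7 and FGF10 in its epithelial splice form, was the receptor that fell most on day 1. It had 119, 119 and 108 CPM on day 0, 22.1, 17.7 and 17.0 on day 1, 151, 127 and 145 on day 3 and 198, 206 and 122 on day 5. It had 89.4, 72.8 and 71.6 CPM on day 7, 73.9 and 80.7 on day 10, 48.3, 59.5 and 41.1 on day 14 and 23.6, 22.6 and 27.3 on day 28. The day 1 libraries lay below those of all other days, and the counts do not separate splice forms. FGFR2 fell on day 1 (log2 change -2.60, SE 0.23, adjusted p = 6.7e-09) and rose on day 3 (log2 change 2.89, SE 0.24, adjusted p = 7e-10). FGFR2 then fell on day 7 (log2 change -1.17, SE 0.22, adjusted p = 0.000831) and on day 28 (log2 change -1.02, SE 0.23, adjusted p = 0.0021). The day 7 fall did not pass with only the libraries of the 2 days (adjusted p = 0.114).

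FGFR3 (ENSG00000068078, chromosome 4, 1793293 to 1808872, plus strand), best known as a brake on bone growth, had the largest rise of the receptors. It had 9.85, 10.3 and 8.48 CPM on day 0, 2.24, 3.27 and 4.23 on day 1, 99.8, 135 and 129 on day 3 and 167, 87.7 and 272 on day 5. It had 80.2, 78.1 and 98.6 CPM on day 7, 31.9 and 82.2 on day 10, 32.8, 49.6 and 54.9 on day 14 and 7.24, 9.74 and 9.16 on day 28. Days 3 to 14 stood above days 0, 1 and 28 in every library, and the day 5 and day 10 libraries were far apart among themselves. Its lowest library on days 5, 10 and 14 was the one with the lowest endoderm and liver marker sum, and the part of such cells was not tested. FGFR3 fell on day 1 (log2 change -1.56, SE 0.37, adjusted p = 0.00257) and rose on day 3 (log2 change 5.22, SE 0.41, adjusted p = 2.76e-10). FGFR3 then fell on day 28 (log2 change -2.39, SE 0.36, adjusted p = 2.42e-05). Its lower value on day 7 was at the threshold (log2 change -1.03, SE 0.34, adjusted p = 0.0483), and its libraries overlapped those of day 5. That value did not pass with only the libraries of the 2 days (adjusted p = 0.253). Adjusted p for the day 7 change was 0.0657 with RLE factors, 0.0527 with a minimum of 30 counts, 0.119 with library totals alone, 0.0645 with upper-quartile factors, 0.0867 without day 5 replicate 1, 0.233 without day 5 replicate 3, 0.181 without day 7 replicate 1, 0.215 without day 7 replicate 2 and 0.111 without day 7 replicate 3.

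FGFR4, the receptor of FGF19 in liver, had 62.8, 60.6 and 68.0 CPM on day 0, 82.3, 65.5 and 93.7 on day 1, 38.0, 60.4 and 55.8 on day 3 and 94.1, 32.1 and 149 on day 5. It had 38.8, 43.1 and 50.4 CPM on day 7, 8.78 and 30.8 on day 10, 12.5, 29.2 and 35.8 on day 14 and 2.37, 4.56 and 3.82 on day 28. Within days 5, 10 and 14 the libraries spread widely. The lowest FGFR4 library of each of these days, though not of day 7, was the one with the lowest endoderm and liver marker sum. All 7 of those markers averaged 1 CPM or more on these days, and 6 of the 7 did on day 28. Their sum was 118 to 258 CPM on day 28, against 529 to 3208 CPM on day 14, the step on which FGFR3, FGFR4 and DUSP9 fell. The sum was 170 and 549 CPM on day 10, and none of these genes was called on day 14 against day 10. On day 3 the sum was 126 to 250 CPM, where FGFR3 averaged 121 CPM, FGFR4 51.4 and DUSP9 0.842. The part of such cells was not tested. FGFR4 fell on day 28 (log2 change -2.85, SE 0.47, adjusted p = 9.4e-05). No earlier step passed, with log2 changes of 0.33 on day 1, -0.65 on day 3, 0.83 on day 5, -1.05 on day 7, -1.15 on day 10 and 0.38 on day 14. Without day 5 replicate 2, FGFR4 was higher on day 5 (log2 change 1.10, adjusted p = 0.0167) and lower on day 7 (log2 change -1.34, adjusted p = 0.00985). Without day 10 replicate 2 it was lower on day 10 (log2 change -2.40, adjusted p = 0.0265).

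**Figure D3:**
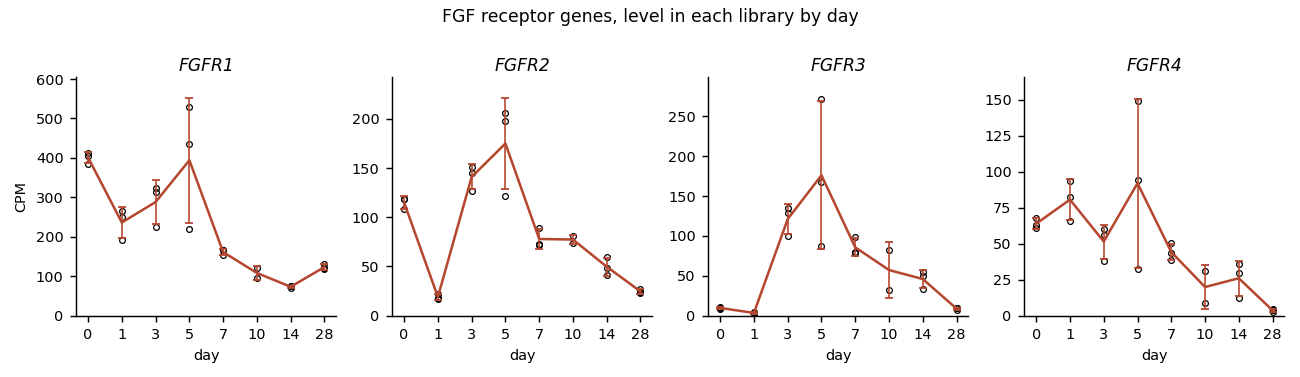
Level (CPM, each panel with its own axis) of the 4 receptor genes by day (evenly spaced, not to scale in time). Circles are libraries and lines join day means ± SD (n = 3, or 2 on day 10). FGFR2 and FGFR3 are lowest on day 1 and high on days 3 and 5, and the day 5 libraries are the most spread in every panel.

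As a group, the receptors summed to 44.7 ± 1.15 CPM per kb of exon on day 0, 32.1 ± 5.25 on day 1, 59.9 ± 9.00 on day 3 and 87.6 ± 38.1 on day 5. The sum was 40.4 ± 3.46 CPM per kb on day 7, 26.3 ± 11.9 on day 10, 21.7 ± 4.73 on day 14 and 11.0 ± 0.838 on day 28. FGFR1 was the leading receptor per kb on day 0 (52.2% of the sum), FGFR4 on day 1 (52.1%), FGFR3 from day 3 to day 14 (41.4% to 44.8%) and FGFR1 on day 28 (65.0%). That order depends on the division by exon length: in CPM alone FGFR1 was the highest receptor on every day, with 288 CPM on day 3 where FGFR3 had 121. The union of exons was 17201 bases for FGFR1 and 18813 for FGFR2, against 4848 for FGFR3 and 4810 for FGFR4. A union over all annotated transcripts can be longer than any 1 messenger, so the order per kb may not be that of the messengers. On day 7 against day 5, 3 of the 4 receptors were lower (5.02% of all genes) and the median log2 change over the 4 was -1.11, where that of all genes was -0.0934. With only the libraries of these days, 0 members were lower (227 of 15989 genes). On day 28 against day 14, FGFR2, FGFR3 and FGFR4 were lower and FGFR1 higher.

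**Figure D4:**
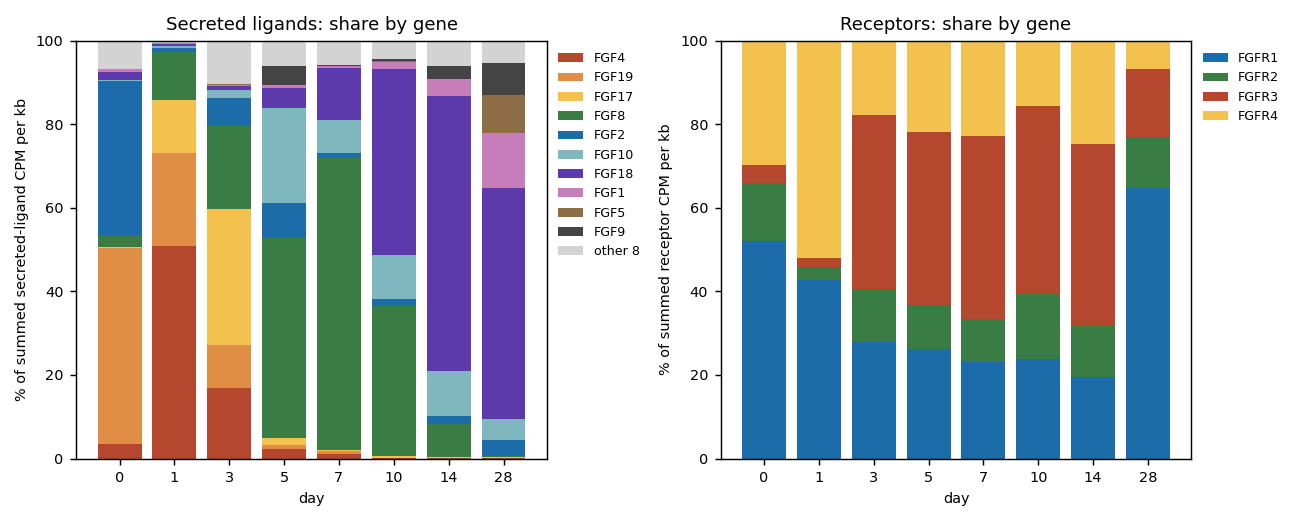
Share (%) of the summed CPM per kb of exon held by each gene, for the 18 secreted ligands (left, the other 8 pooled in grey) and the 4 receptors (right), by day, from day means. By day means, the leading ligand passes from FGF19 to FGF4, FGF17, FGF8 and FGF18, with FGF8 ahead of FGF17 on day 3 without replicate 3, and the leading receptor from FGFR1 to FGFR4, FGFR3 and back to FGFR1. In CPM alone FGF2 leads the ligands on day 0 and FGF10 on day 5, and FGFR1 leads the receptors on every day.

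The 11 feedback and target genes did not move as 1 block. On day 1, 3 of them rose (SPRY2, SPRED2 and DUSP4) and 5 fell (SPRY1, SPRY4, SPRED1, DUSP6 and ETV1), while ETV4, ETV5 and DUSP9 were not called (15.3% of all genes rose and 16.5% fell). On day 3, 4 rose (SPRY2, SPRED1, SPRED2 and ETV5) and 3 fell (DUSP4, ETV1 and ETV4), where 18.2% of all genes rose and 19.0% fell. On day 5, 5 fell (SPRY2, SPRY4, SPRED2, ETV4 and ETV5) and 3 rose (DUSP6, DUSP9 and ETV1, the call of ETV1 resting on 1 library), where 6.33% of all genes fell and 10.3% rose. On day 7, 5 rose (SPRY2, SPRY4, ETV1, ETV4 and ETV5) and 0 fell (5.32% and 5.02% of all genes). Neither DUSP6 (log2 change -0.68, adjusted p = 0.0698) nor DUSP9 (log2 change 0.84, adjusted p = 0.27) passed on day 7. On day 14, 5 fell (SPRY2, SPRY4, DUSP4, DUSP6 and ETV5) and 0 rose (2.11% and 1.64% of all genes). Median log2 changes over the 11 were -0.76 on day 5, 0.77 on day 7 and -1.07 on day 14, against 0.0129, -0.0934 and 0.00680 over all genes tested. Other markers moved on the same days. The 3 smooth muscle markers, all at 1 CPM or more, summed to 142 to 274 CPM on day 5, 896 to 911 on day 7, 642 to 752 on day 10 and 193 to 297 on day 14. The 5 endothelial markers, of which 3 to 5 averaged 1 CPM or more, summed to 14.2 to 75.9, 108 to 120, 50.1 to 51.5 and 12.1 to 20.2 CPM on those days, and the part of such cells was not tested.

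The Sprouty genes encode inhibitors that act between the receptor and RAF. SPRY1 had 35.8, 34.4 and 35.1 CPM on day 0, 18.3, 14.5 and 14.7 on day 1 and 18.2, 21.2 and 25.5 on day 3, and 27.8 to 43.9 CPM in later libraries. It fell on day 1 (log2 change -1.15, SE 0.20, adjusted p = 0.000112), and no other single step was called. SPRY2 (ENSG00000136158, chromosome 13, 80335976 to 80341126, minus strand) had 50.4, 54.7 and 50.8 CPM on day 0, 109, 83.1 and 108 on day 1, 151, 149 and 144 on day 3 and 78.6, 49.6 and 61.1 on day 5. It had 102, 109 and 112 CPM on day 7, 102 and 96.3 on day 10, 45.7, 52.1 and 43.7 on day 14 and 49.3, 55.9 and 73.8 on day 28. The day 3 libraries were the highest, and those of day 5 lay below days 1, 3, 7 and 10. SPRY2 rose on day 1 (log2 change 0.94, SE 0.21, adjusted p = 0.0018) and day 3 (log2 change 0.57, SE 0.21, adjusted p = 0.0361), fell on day 5 (log2 change -1.23, SE 0.21, adjusted p = 0.000123), rose on day 7 (log2 change 0.77, SE 0.21, adjusted p = 0.0191) and fell on day 14 (log2 change -1.07, SE 0.23, adjusted p = 0.0108). Adjusted p for the day 3 rise was 0.137 with no filter beyond 1 count, 0.0717 without day 1 replicate 2 and 0.0517 without day 3 replicate 1. For the day 7 rise it was 0.0506 without day 7 replicate 3, and for the day 14 fall 0.0529 without day 10 replicate 1 and 0.0722 without day 10 replicate 2.

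SPRY4 (ENSG00000187678, chromosome 5, 142310427 to 142326455, minus strand) had 211, 196 and 216 CPM on day 0, 121, 94.7 and 121 on day 1, 92.6, 126 and 204 on day 3 and 46.4, 33.7 and 52.6 on day 5. It had 94.5, 94.7 and 99.4 CPM on day 7, 81.0 and 99.3 on day 10, 44.3, 37.7 and 17.2 on day 14 and 37.6, 31.9 and 47.2 on day 28. The day 5 libraries lay below all of days 3 and 7. SPRY4 fell on day 5 (log2 change -1.67, SE 0.30, adjusted p = 0.000189), rose on day 7 (log2 change 1.13, SE 0.30, adjusted p = 0.0142) and fell on day 14 (log2 change -1.45, SE 0.33, adjusted p = 0.0134). Its fall on day 1 (log2 change -0.89, SE 0.29, adjusted p = 0.0238) did not pass when any 1 of the 6 libraries of days 1 and 0 was left out (adjusted p of 0.0521 to 0.0738). For the day 14 fall, adjusted p was 0.14 without day 10 replicate 2 and 0.0584 without day 14 replicate 3.

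The SPRED genes encode membrane-bound inhibitors of RAS signalling. SPRED1 had 78.4, 92.5 and 74.3 CPM on day 0, 36.6, 53.9 and 37.3 on day 1, 105, 68.3 and 52.7 on day 3 and 38.9, 66.1 and 27.8 on day 5, and 38.1 to 52.2 CPM later. Its day 3 and day 5 libraries spread widely and overlapped. SPRED1 fell on day 1 (log2 change -0.94, SE 0.27, adjusted p = 0.0117) and was called higher on day 3 (log2 change 0.82, SE 0.27, adjusted p = 0.0201). Adjusted p was 0.0627 without day 0 replicate 2, 0.0751 without day 1 replicate 1 and 0.0692 without day 1 replicate 3 for day 1. It was 0.064 without day 1 replicate 1, 0.0552 without day 1 replicate 3 and 0.138 without day 3 replicate 1 for day 3. The lower value on day 5 did not pass (log2 change -0.76, adjusted p = 0.0595), but did with DESeq2 (adjusted p = 0.0274) and without day 5 replicate 2 (adjusted p = 0.000478).

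SPRED2 had 11.6, 11.4 and 12.2 CPM on day 0, 29.2, 26.8 and 28.9 on day 1, 39.2, 43.3 and 48.5 on day 3 and 31.6, 24.4 and 20.6 on day 5. It had 27.3, 26.7 and 31.4 CPM on day 7, 26.5 and 29.9 on day 10, 22.6, 20.8 and 15.0 on day 14 and 14.5, 10.8 and 17.8 on day 28. The libraries of days 0, 1 and 3 did not overlap, each day above the one before. SPRED2 rose on day 1 (log2 change 1.27, SE 0.22, adjusted p = 0.000138) and day 3 (log2 change 0.62, SE 0.22, adjusted p = 0.0266) and fell on day 5 (log2 change -0.77, SE 0.22, adjusted p = 0.0159). Adjusted p for day 3 was 0.107 with no filter beyond 1 count and 0.0633 without day 3 replicate 3, and for day 5 0.0587 without day 3 replicate 3.

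The phosphatases remove the activating phosphates of ERK, DUSP6 in the cytoplasm and DUSP4 in the nucleus. DUSP6 (ENSG00000139318, chromosome 12, 89347235 to 89352501, minus strand) had 290, 300 and 284 CPM on day 0, 135, 135 and 123 on day 1, 108, 86.1 and 109 on day 3 and 429, 485 and 333 on day 5. It had 254, 253 and 274 CPM on day 7, 145 and 169 on day 10, 48.6, 68.7 and 41.4 on day 14 and 19.9, 19.5 and 33.8 on day 28. The day 5 libraries were the highest of the course, and from there each day lay below the one before, without overlap. DUSP6 fell on day 1 (log2 change -1.16, SE 0.24, adjusted p = 0.000805) and rose on day 5 (log2 change 2.04, SE 0.25, adjusted p = 7.26e-07), the step at which SPRY2, SPRY4, ETV4 and ETV5 fell. DUSP6 then fell on day 14 (log2 change -1.57, SE 0.26, adjusted p = 0.00123) and day 28 (log2 change -1.12, SE 0.24, adjusted p = 0.00181). The step on day 10 did not pass (log2 change -0.73, adjusted p = 0.101), but that on day 7 (adjusted p = 0.0353) and that on day 10 (adjusted p = 0.0232) did with DESeq2. An antisense RNA covers 28.6% of the DUSP6 exons and took 431 counts over all libraries, against 49931 for DUSP6.

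DUSP9 (ENSG00000130829, chromosome X, 153642492 to 153651326, plus strand), a phosphatase gene also known from placenta, had its largest rise on day 5. It had 1.81, 1.84 and 2.48 CPM on day 0, 2.09, 1.42 and 2.25 on day 1, 0.666, 0.856 and 1.00 on day 3 and 28.7, 13.6 and 37.7 on day 5. It had 39.2, 49.9 and 52.2 CPM on day 7, 9.30 and 57.0 on day 10, 16.8, 36.9 and 71.0 on day 14 and 0.813, 1.00 and 0.865 on day 28. Every library of days 5 to 14 lay above every library of the other days. Within days 5, 10 and 14 the lowest DUSP9 library was the one with the lowest endoderm and liver marker sum, as for FGFR3 and FGFR4. The same held for FGF8, DUSP4 and ETV4, and for FGF1, which had 9 counts over the day 5 libraries. On day 7, with endoderm and liver sums of 353, 334 and 394 CPM, it held among these genes for FGFR3 only. Day 5 replicate 2 also had the lowest cardiomyocyte (1814, 1321 and 2858 CPM), cardiac progenitor and smooth muscle sums of its day. Day 10 had only 2 libraries, and how many of all genes ran in this order was not counted. The part of any of these cells was not tested. DUSP9 rose on day 5 (log2 change 4.99, SE 0.59, adjusted p = 5.2e-07) and fell on day 28 (log2 change -5.52, SE 0.59, adjusted p = 1.83e-07).

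DUSP4 had 13.7, 11.7 and 10.5 CPM on day 0, 35.7, 30.8 and 36.6 on day 1, 12.3, 19.5 and 24.0 on day 3 and 44.6, 23.9 and 28.3 on day 5. It had 22.0, 29.3 and 21.7 CPM on day 7, 5.55 and 12.0 on day 10, 2.03, 3.94 and 2.52 on day 14 and 5.32, 4.56 and 5.62 on day 28. The day 14 and day 28 libraries lay below all of days 0 to 7. Within days 5, 10 and 14, but not day 7, the lowest DUSP4 library was the one with the lowest endoderm and liver marker sum. The part of such cells was not tested. DUSP4 rose on day 1 (log2 change 1.52, SE 0.29, adjusted p = 0.000385), and was called lower on day 3 (log2 change -0.89, SE 0.29, adjusted p = 0.0171), day 10 (log2 change -1.46, SE 0.35, adjusted p = 0.0105) and day 14 (log2 change -1.64, SE 0.37, adjusted p = 0.0125). For day 3 the adjusted p was 0.0865 with library totals alone, 0.0689 without day 1 replicate 1, 0.0798 without day 1 replicate 3, 0.154 without day 3 replicate 1 and 0.0542 without day 3 replicate 2. For day 10 it was 0.296 without day 10 replicate 1, and for day 14 0.4 without day 10 replicate 2 and 0.0589 without day 14 replicate 1.

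The PEA3 factors are transcription activators that ERK induces. ETV5 (ENSG00000244405, chromosome 3, 186046314 to 186110318, minus strand) had 70.3, 72.4 and 68.4 CPM on day 0, 63.1, 43.3 and 62.5 on day 1, 67.3, 93.8 and 129 on day 3 and 48.5, 22.9 and 31.8 on day 5. It had 156, 143 and 162 CPM on day 7, 154 and 158 on day 10, 57.4, 48.0 and 23.7 on day 14 and 53.2, 56.4 and 75.6 on day 28. The libraries of days 7 and 10 lay above all others, and those of day 5 below all of days 3 and 7. ETV5 fell on day 5 (log2 change -1.49, SE 0.30, adjusted p = 0.000787), rose on day 7 (log2 change 2.16, SE 0.31, adjusted p = 2.53e-05) and fell on day 14 (log2 change -1.86, SE 0.33, adjusted p = 0.00201). It was also called higher on day 3 (log2 change 0.78, SE 0.30, adjusted p = 0.041), where adjusted p was 0.0997 without day 1 replicate 2 and 0.165 without day 3 replicate 3.

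ETV4 had 129, 125 and 139 CPM on day 0, 182, 136 and 200 on day 1, 12.6, 23.3 and 30.1 on day 3 and 5.89, 3.62 and 8.44 on day 5. It had 13.3, 16.7 and 15.3 CPM on day 7, 9.30 and 19.1 on day 10, 2.60, 8.95 and 5.30 on day 14 and 4.29, 4.71 and 6.13 on day 28. Days 0 and 1 lay above all later days in every library. Within days 5, 10 and 14, but not day 7, the lowest ETV4 library was the one with the lowest endoderm and liver marker sum. The part of such cells was not tested. ETV4 was not called on day 1 (log2 change 0.40, adjusted p = 0.375), fell on day 3 (log2 change -2.98, SE 0.36, adjusted p = 5.33e-07) and day 5 (log2 change -1.94, SE 0.38, adjusted p = 0.000489), and rose on day 7 (log2 change 1.41, SE 0.38, adjusted p = 0.0168). For the day 7 rise adjusted p was 0.0545 without day 5 replicate 1 and 0.0549 without day 7 replicate 2. DHX8 shares 68 exon bases with ETV4 on the opposite strand (1.9% of its exons). The lower value on day 14 did not pass (log2 change -1.35, adjusted p = 0.0637), but did with DESeq2 (adjusted p = 0.0308).

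ETV1 had 127, 155 and 133 CPM on day 0, 48.0, 60.5 and 44.6 on day 1, 26.5, 19.1 and 20.4 on day 3 and 26.4, 66.4 and 25.8 on day 5. It had 102, 103 and 96.0 CPM on day 7, 121 and 101 on day 10, 180, 161 and 196 on day 14 and 256, 252 and 315 on day 28. The day 28 libraries were the highest of the course, unlike those of ETV4 and ETV5. ETV1 fell on day 1 (log2 change -1.44, SE 0.28, adjusted p = 0.000425) and day 3 (log2 change -1.21, SE 0.28, adjusted p = 0.00137), and rose on day 7 (log2 change 1.33, SE 0.28, adjusted p = 0.0022). Its call on day 5 (log2 change 0.86, SE 0.28, adjusted p = 0.0341) rested on replicate 2, since its log2 change was 0.12 without it. Adjusted p for that change was 0.0673 with library totals alone, 0.092 with no filter beyond 1 count, 0.0519 with the replicate block, 0.14 without day 3 replicate 2, 0.118 without day 3 replicate 3 and 0.703 without day 5 replicate 2. The steps on day 14 (log2 change 0.68, adjusted p = 0.226) and day 28 (log2 change 0.62, adjusted p = 0.14) did not pass, and day 28 was higher than day 0 (log2 change 0.99, SE 0.27, adjusted p = 0.00309).

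**Figure D5:**
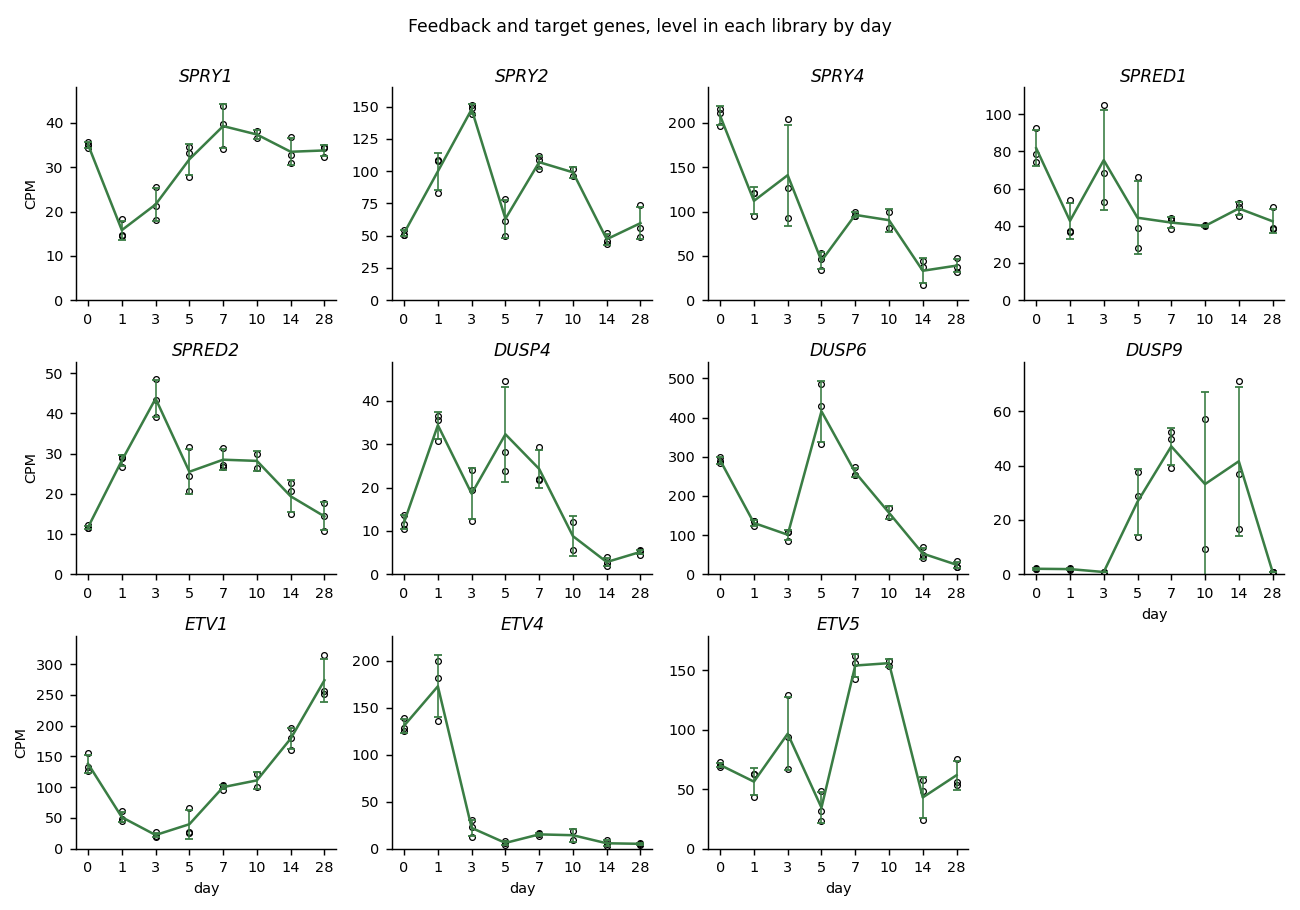
Level (CPM, each panel with its own axis) of the 11 feedback and target genes by day (evenly spaced, not to scale in time). Circles are libraries and lines join day means ± SD (n = 3, or 2 on day 10). SPRY2, SPRY4, ETV4 and ETV5 are lower on day 5 than on days 3 and 7, while DUSP6 and DUSP9 are higher on day 5 than on day 3.

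Over the whole course, day 28 against day 0, calls were counted by role, where 32.1% of all genes were higher and 28.4% lower. The counts of the secreted ligands lay near those shares. Of 15 secreted ligands tested, 6 were higher (FGF1, FGF5, FGF7, FGF9, FGF10 and FGF18) and 4 lower (FGF2, FGF4, FGF8 and FGF19). FGF2 was lower by a log2 change of -2.54, FGF8 by -2.62 and FGF4 by -4.01. FGF10 was higher (log2 change 6.05, adjusted p = 6.34e-09), as was FGF1 (log2 change 4.73, adjusted p = 2.97e-10). All 3 homologous factors tested were higher, FGF12 by a log2 change of 2.70, FGF11 by 1.75 and FGF13 by the small step given above. Of the receptors, FGFR4 (log2 change -4.15, adjusted p = 6.57e-08), FGFR2 (log2 change -2.24, adjusted p = 7.08e-09) and FGFR1 (log2 change -1.70, adjusted p = 2.81e-06) were lower, and FGFR3 was not called. Of the 11 feedback and target genes, 5 were lower (SPRY4, SPRED1, DUSP4, DUSP6 and ETV4) and ETV1 was higher. ETV4 (log2 change -4.69, adjusted p = 2.24e-10) and DUSP6 (log2 change -3.58, adjusted p = 1.42e-11) had the largest falls among these.

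A further 70 genes of the pathway were followed beside the members, and 67 of them were tested. Of 15 early response genes that ERK induces, 10 rose on day 1 and 0 fell (15.3% and 16.5% of all genes), the day on which the ligand sum was highest. A link between these was not tested, and of the 11 feedback and target genes 3 rose and 5 fell on that day. EGR1, an immediate early transcription factor, had 11.1, 8.15 and 13.8 CPM on day 1, against 1.37, 1.13 and 0.923 on day 0 (log2 change 3.25, adjusted p = 2.28e-07). FOSL1, an AP-1 subunit, had 34.3, 26.4 and 39.8 CPM on day 1, against 2.41, 2.07 and 3.00 on day 0 (log2 change 3.74, adjusted p = 2.08e-08), and IER3 had 245, 170 and 304, against 16.3, 16.7 and 14.9 (log2 change 3.91, adjusted p = 2.06e-08). On day 3 against day 1, 8 of the 15 fell and 3 rose (19.0% and 18.2% of all genes), with FOSL1 at a log2 change of -3.10 and IER3 at -3.34. On day 28 against day 14, 7 rose and 2 fell (7.96% and 7.78% of all genes).

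IL17RD, an inhibitor of FGF receptors known as SEF, fell on day 5 and rose on day 7, as SPRY2, SPRY4, ETV4 and ETV5 did. It had 201, 209 and 222 CPM on day 0, 410, 693 and 311 on day 1, 176, 125 and 164 on day 3, 39.4, 31.8 and 15.1 on day 5 and 88.7, 66.3 and 72.6 on day 7. IL17RD rose on day 1 (log2 change 1.16, adjusted p = 0.00461), fell on day 3 (log2 change -1.60, adjusted p = 0.000154) and day 5 (log2 change -2.41, adjusted p = 1.88e-06) and rose on day 7 (log2 change 1.38, adjusted p = 0.00308). Of the 10 further negative regulators tested, IL17RD included, 4 rose on day 5 and IL17RD alone fell (10.3% and 6.33% of all genes). DUSP2, a nuclear phosphatase of MAP kinases, had a log2 change of 1.87. FGFRL1, a receptor without a kinase domain, rose on day 5 (log2 change 1.30, adjusted p = 0.00841), and KLB, the coreceptor of FGF19 and FGF21, fell on day 28 (log2 change -1.94, adjusted p = 0.00238).

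Among carriers and surface partners, FGFBP3, which releases FGFs from the matrix, fell over the course (log2 change -4.66, adjusted p = 4.76e-12). FLRT3, a membrane partner of the receptors, had 2.63, 2.50 and 2.31 CPM on day 0, 10.7, 15.1 and 11.1 on day 1, 113, 62.2 and 78.0 on day 3 and 171, 320 and 136 on day 5. Each of those steps was called, the largest on day 3 (log2 change 2.77, adjusted p = 7.96e-07). Of 14 heparan sulfate enzymes and glypicans, 3 rose and 2 fell on day 28 against day 14 (7.96% and 7.78% of all genes). SULF1, which trims the sulfates that FGFs bind, had 234, 256 and 259 CPM on day 28, against 9.37, 24.7 and 12.0 on day 14 (log2 change 4.02, adjusted p = 1.32e-07), and GPC3, a glypican, had 41.6, 48.7 and 45.7, against 106, 330 and 417 (log2 change -2.65, adjusted p = 1.08e-05). SULF1 stood beside the stromal sum and GPC3 beside the endoderm and liver sum given above. The day 14 libraries of GPC3 ran in the order of that sum, and the part of those cells was not tested. Of 20 genes of the RAS to ERK cascade itself, 6 rose and 6 fell on day 1 (15.3% and 16.5% of all genes), 0 were called on day 7 (median log2 change -0.20), and 5 rose and 2 fell over the course, below the 32.1% and 28.4% of all genes. GAB1, an adaptor of the receptors, rose most of these over the course (log2 change 3.54, adjusted p = 1.23e-09).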

How the data were processed

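The deposited table holds raw counts of reads per gene for 23 libraries of ribosomal RNA-depleted total RNA, per the labels. Per the submitters' processing notes and the series' design text, Trim Galore 0.65 shortened the reads to 50 bases, which were aligned to GRCh38 (hg38) with STAR 2.7.0 and counted with HTSeq over GENCODE release 38; the strand setting is not given in the sources used here. Gene symbols, coordinates and exon lengths were taken here from GENCODE release 44, which holds 56387 of the 57477 identifiers used; 44 pseudoautosomal Y rows of the 57521, with 0 counts, were left out.

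From the deposited counts, edgeR 4.0.16 (R 4.3.3) tested 22245 genes kept by its filter on low counts (minimum 10), with TMM scaling, 1 robust quasi-likelihood fit of all 23 libraries and Benjamini-Hochberg adjustment at 0.05. CPM use the TMM-scaled library totals, and CPM per kb divide by the union of a gene's exons. The test was also run on simulated counts, in which most genes had the same mean on every day. Since these data differ from that, no result here rests on that run. The rule for members uses gene names and no measured value, but the members, gene lists and marker lists were chosen with earlier results of these data known. Every member that reached a mean of 5 CPM on a day is given library by library, or on some days as a range over libraries. Counting error depends on depth, which was lowest at 4330334 counts.

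The labels give libraries a replicate number and do not say that equal numbers were paired. Between days 1 and 0, same-numbered deviations from the day means correlated at r of 0.259, 0.675 and 0.453 over 5000 genes. On day 7 against day 5, r was 0.0514, 0.332 and 0.549, and every other comparison included a negative r. These correlations cannot show pairing. A fit with the number as a block changed none of the 19 calls on day 1 against day 0. Alternatives were DESeq2 1.42.0, other scalings, other filters, fits of the libraries of 2 days only, the replicate block and leaving out each library in turn. Promoter stretches come from RefSeq (GRCh38.p14).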

Additional observations from a re-analysis of the deposited data

How the results depend on the processing

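Of the 111 calls of members over the 8 comparisons, 77 passed under every alternative tried, 34 did not pass under at least 1, and 0 changed direction. DESeq2 kept all 111; RLE factors and a minimum of 30 counts each ended 1 (106 had a value under that minimum), upper-quartile factors 4, no filter beyond 1 count 4, library totals alone 5, and a fit of the libraries of 2 days only 14 of 108. With only the libraries of 2 days, 3 members were higher and 7 lower on day 5, and 4 higher and 0 lower on day 7. On day 10, 4 were higher and 4 lower, and the counts over all genes in these fits are given above. On day 10, 3 members were lower with DESeq2, with library totals alone and with no filter. The causes were not tested. Counts over all genes moved between fits as well. Genes lower on day 5 were 1408 of 22245 in the main fit and 4579 of 21362 without day 5 replicate 2. Genes lower on day 7 were 1117 of 22245 in the main fit and 432 of 22359 without day 7 replicate 2. Leaving out 1 library gave 9 to 9 members higher and 7 to 8 lower on day 1, 6 to 7 and 8 to 9 on day 3, 4 to 9 and 11 to 13 on day 5, 7 to 9 and 3 to 5 on day 7, 1 to 2 and 0 to 3 on day 10, 0 to 3 and 3 to 7 on day 14, 5 to 6 and 6 to 6 on day 28 against day 14, and 9 to 10 and 12 to 12 on day 28 against day 0. Where day 10 was left with 1 library, that library was assumed to vary like those of the other days. The replicate block gave 9 members higher and 10 lower on day 1, as without it, and a block fit of days 1 and 0 alone, chosen after seeing the data, gave 9 and 11. The numbers were not shown to pair libraries in any comparison. Elsewhere the block ended the calls of ETV1 on day 5 (adjusted p = 0.0519) and FGF13 on day 28 against day 0 (adjusted p = 0.0518). SPRED1 on day 5 (adjusted p = 0.0476) and ETV4 on day 14 (adjusted p = 0.0291) passed with the block. Library totals alone shifted the median log2 change of all genes by 0.23 on day 3, 0.146 on day 7, -0.176 on day 10, -0.207 on day 28 against day 14 and -0.118 against day 0. Genes near 0 counts are limited by depth.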
